A study of Mus musculus with 8 samples.

Results

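Constitutive sites at gene ends are the places near the start or the end of a protein-coding gene where a peak of open chromatin was called in every one of the 8 libraries. In each library the 61737 summits of highest score were kept, where a summit is the point of highest signal in a called peak and 61737 is the length of the shortest deposited list. Summits of all libraries lying within 250 bp of each other were chained into 1 site. Of 112443 sites found in any library, 29645 had a summit in all 8, and 9218 of these had their midpoint within 1 kb of the start or end of a RefSeq protein-coding gene (mm10). These 9218 sites are the members, 31.1% of the sites in all 8 libraries and 8.20% of all sites. The members were thus selected on the scores and positions of these summits, so the presence of a member in every library is not a result.

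The libraries are ATAC-seq, which cuts open chromatin with the Tn5 transposase, of conventional dendritic cells sorted from mouse spleen as lineage-negative CD11c+MHCII+CD64- cells. cDC1 were XCR1+CD11b- and cDC2 were XCR1-CD11b+. Each subset was taken from mice labelled HDAC1 floxed (WT below) and mice labelled HDAC1 Mx1-Cre (KO below), with 2 libraries in each of the 4 groups. All mice of both genotypes had received poly I:C, which induces recombination by Mx1-Cre, and cells were sorted 2 weeks after it. The Mx1 promoter answers to interferon in many cell types, so Cre is not limited to dendritic cells. Age, sex and the extent of Hdac1 recombination are not given in the labels. Whether libraries of 1 group stem from different animals is not stated in the labels, so every p-value below measures only the spread between these libraries.

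Open chromatin at gene starts marks the nucleosome-depleted core promoter, where general transcription factors and RNA polymerase II assemble. At genes that most cells use, this region is often a CpG island kept open by widely expressed factors such as Sp1, NRF1, NFY and the ETS proteins. cDC1 and cDC2 share most of these promoters and differ through lineage factors, such as BATF3 and IRF8 in cDC1 and IRF4 and Notch signalling in cDC2. HDAC1 is a histone deacetylase that works in the Sin3, NuRD and CoREST corepressor complexes.

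The sequences below come from the promoters of members on which the results turn. They are the 250 bases before the annotated start, 5′ to 3′ on the gene's strand, from RefSeq promoters of GRCm38.p6. Capitals mark the motifs found on either strand among the 13 searched. A site is the stretch that its summits span, and it can run past the start and out of the printed window. Msmo1 (chr8:64733579-64733828, minus strand) and Rcl1 (chr19:29101125-29101374, plus strand) are shown because their sites were among the 10 of highest rank over the 8 libraries. Msmo1 encodes a methylsterol oxidase of cholesterol synthesis and Rcl1 a ribosomal RNA processing protein.
Msmo1: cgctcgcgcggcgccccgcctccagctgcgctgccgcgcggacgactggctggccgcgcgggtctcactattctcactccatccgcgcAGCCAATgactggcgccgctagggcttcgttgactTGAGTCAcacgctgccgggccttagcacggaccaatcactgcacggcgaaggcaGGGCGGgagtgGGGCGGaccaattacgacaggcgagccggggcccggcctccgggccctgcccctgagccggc
Rcl1: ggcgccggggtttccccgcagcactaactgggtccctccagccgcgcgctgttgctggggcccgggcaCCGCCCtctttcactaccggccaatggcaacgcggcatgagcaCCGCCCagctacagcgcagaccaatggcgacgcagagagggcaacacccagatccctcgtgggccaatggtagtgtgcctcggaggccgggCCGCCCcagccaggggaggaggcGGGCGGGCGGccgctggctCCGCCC
The Msmo1 window held an NFY box (AGCCAAT) at -162, an AP-1 site (TGANTCA) at -127 and GC boxes (GGGCGG) at -73 and -62, counted back from the start. The midpoint of its site lay at -105. The Rcl1 window held 6 GC boxes, at -182, -139, -48, -25, -21 and -6, and its site lay at -90.5. GC content was 72% for Msmo1 and 72.4% for Rcl1.

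Ptgs2 (chr1:150099781-150100030, plus strand), the inducible prostaglandin synthase COX-2, and Zik1 (chr7:10495382-10495631, minus strand), a zinc finger protein, are shown because their sites ranked far higher in cDC2. Irf4 (chr13:30748983-30749232, plus strand), the transcription factor needed by cDC2, is shown as an identity gene of that subset whose site was higher there.
Ptgs2: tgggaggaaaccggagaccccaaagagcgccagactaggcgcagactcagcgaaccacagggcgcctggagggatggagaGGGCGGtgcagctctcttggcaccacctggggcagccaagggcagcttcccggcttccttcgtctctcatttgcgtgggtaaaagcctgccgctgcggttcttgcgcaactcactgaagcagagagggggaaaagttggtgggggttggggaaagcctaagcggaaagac
Zik1: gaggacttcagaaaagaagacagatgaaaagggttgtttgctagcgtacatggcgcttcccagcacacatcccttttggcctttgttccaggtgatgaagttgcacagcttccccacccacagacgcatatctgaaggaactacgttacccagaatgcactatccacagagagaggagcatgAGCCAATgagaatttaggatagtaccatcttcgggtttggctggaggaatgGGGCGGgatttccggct
Irf4: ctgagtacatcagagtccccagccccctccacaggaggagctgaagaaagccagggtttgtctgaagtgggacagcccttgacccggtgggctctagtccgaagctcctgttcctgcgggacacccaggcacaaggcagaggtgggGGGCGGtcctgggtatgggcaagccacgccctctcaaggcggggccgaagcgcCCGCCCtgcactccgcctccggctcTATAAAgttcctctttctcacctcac
Of the sites, 250 of 344 bases at Ptgs2, 72 of 80 at Zik1 and 67 of 91 at Irf4 lie within the printed windows. Ptgs2 held 1 GC box at -170. Zik1 held an NFY box at -68 and a GC box at -17. Irf4 held GC boxes at -104 and -51 and a TATA box (TATAAA) at -26.

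Sema4f (chr6:82939770-82940019, minus strand), a semaphorin, and Ifi205 (chr1:174031756-174032005, minus strand), an interferon-induced gene used as a cDC1 marker, are shown because their sites ranked far lower in cDC2.
Sema4f: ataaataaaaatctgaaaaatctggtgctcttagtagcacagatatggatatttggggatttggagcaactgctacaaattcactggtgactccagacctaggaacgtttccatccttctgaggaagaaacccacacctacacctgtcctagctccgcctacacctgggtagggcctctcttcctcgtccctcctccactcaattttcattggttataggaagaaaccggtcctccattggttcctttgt
Ifi205: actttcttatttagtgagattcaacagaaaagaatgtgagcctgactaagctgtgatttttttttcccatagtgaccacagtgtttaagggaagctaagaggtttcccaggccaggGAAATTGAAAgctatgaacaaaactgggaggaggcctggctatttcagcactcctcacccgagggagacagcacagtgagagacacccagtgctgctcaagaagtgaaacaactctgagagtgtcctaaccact
Both sites have their midpoints downstream of the start, and the printed windows hold only 14 of the 92 bases of the Sema4f site and 145 of the 432 of the Ifi205 site. Sema4f held none of the 13 motifs in this window. Ifi205 held 1 core of the interferon response element (here on the reverse strand) at -134. GC content was 46% for Sema4f and 45.6% for Ifi205, against 61.6% for Ptgs2, 50% for Zik1 and 63.6% for Irf4. A match says only that these letters are present, and 46.2% of all promoters held a GC box, 9.27% an NFY box, 12.6% a TATA box, 6.99% an AP-1 site and 3.35% an interferon element core.

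Members sat on gene starts far more than on gene ends. The table of promoters gives the strand of 17492 of 21900 protein-coding genes. Among the members, 6606 were near a start only, 388 near an end only and 329 near a start and an end. Another 1647 were near genes without a strand in the table only, and 248 near genes of both kinds. A member's summits spanned a median of 98 bp over the libraries (quartiles 60 and 156 bp), and 8982 members had exactly 1 summit per library. The span was of the same size elsewhere, since the summits of constitutive sites inside genes covered 98 bp and those between genes 99 bp at the median.

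At starts the summits were centred on the start itself. The signed distance from start to site midpoint had a median of 1.5 bp downstream, with quartiles at -59 and 94 bp, and 4384 of the 7124 members near a start (61.5%) lay within 100 bp of it. By library, the share of these members with their best summit within 100 bp of the start was 61.7% (WT 1), 62.2% (WT 2), 61.3% (KO 1) and 62.9% (KO 2) in cDC1. The same libraries of cDC2 had 59.3%, 59.0%, 60.0% and 59.2%. The 4 cDC1 libraries were above the 4 cDC2 libraries, and the genotypes overlapped. Members near an end only were spread over the window, with quartiles of the distance at -501 and 533 bp. At the border of the 1 kb window, 77 members lay in its outermost 50 bp and 94 other sites of all 8 libraries lay in the 50 bp beyond it.

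**Figure D1:**
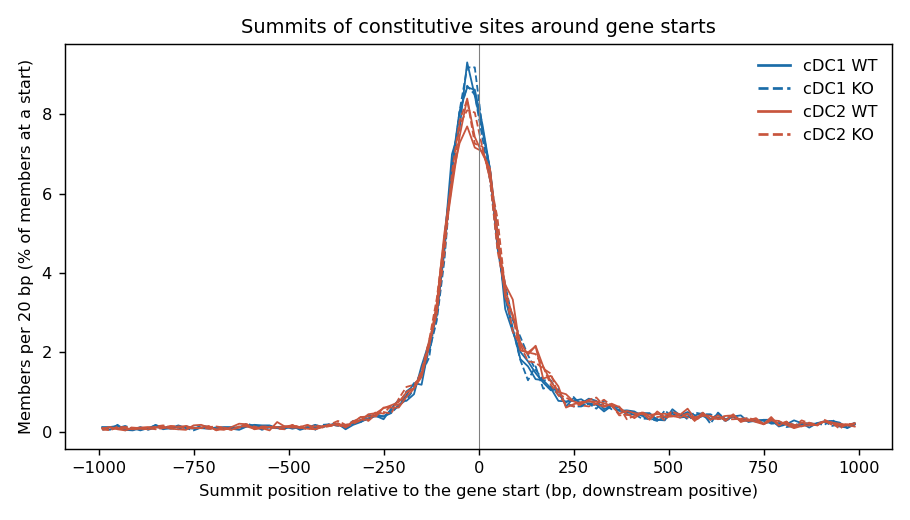
Position of the best summit of each member near an annotated gene start, in bins of 20 bp relative to the start, as a percent of those members, with 1 line per library (blue cDC1, red cDC2, solid WT, dashed KO). All 8 lines peak next to the start, and 59.0% to 62.9% of the summits lie within 100 bp of it.

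Sites at gene ends were common among constitutive sites and less common among the others. The share near a gene end was 11.4% of the 27367 sites found in 1 library, 7.91% of the 12068 found in 4, 13.4% of the 7075 found in 7 and 31.1% of those found in 8. The step from 7 to 8 libraries was thus the largest one, and 945 sites at gene ends missed membership by 1 library. The 9218 members touched 9920 genes, 45.3% of all protein-coding genes. There were 7778 members near 1 gene, 1410 near 2 genes and 30 near 3 or more, and 775 lay at the starts of 2 genes on opposite strands. Conversely, 735 genes had 2 or more members, at most 4.

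Families used in all tissues had a member more often than tissue-restricted ones. Among gene families taken by symbol, 84.5% of 84 ribosomal protein genes, 84.6% of 39 proteasome genes, 81.5% of 92 respiratory chain genes, 94.8% of 58 splicing genes, 87.5% of 56 translation initiation genes and all 13 RNA polymerase II subunit genes had a member. Olfactory receptors, which are mostly silent outside sensory neurons, had one at 5 of 1110 genes (0.450%), vomeronasal receptors at 1 of 355 and keratins at 2 of 53. Not all tissue-restricted genes were near 0, since a list of liver, brain, muscle and skin genes had a member at 7 of 20 (35%). Zfp zinc finger genes stood between, at 248 of 397 genes (62.5%), and replication-dependent histones at 34 of 57. These shares stand beside the 45.3% of all genes and carry no test.

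A gene without a member need not lack an open site. Of the 11980 genes without one, 8526 had no kept summit within 1 kb of either end in any library, 2830 had one in 1 to 7 libraries and 624 in all 8, where the summits did not chain into a site that met the rule. The rule also uses the outermost ends of each gene. The nearest summit to an end of Actb, the beta-actin gene, was 1241 to 1326 bp away in the 8 libraries, with 1 to 2 summits inside the gene, so it has no member. Ikzf1, an early lymphoid and dendritic transcription factor, was left out in the same way, with 7 to 12 summits inside its span and the nearest 1099 to 1237 bp from an end.

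**Figure D2:**
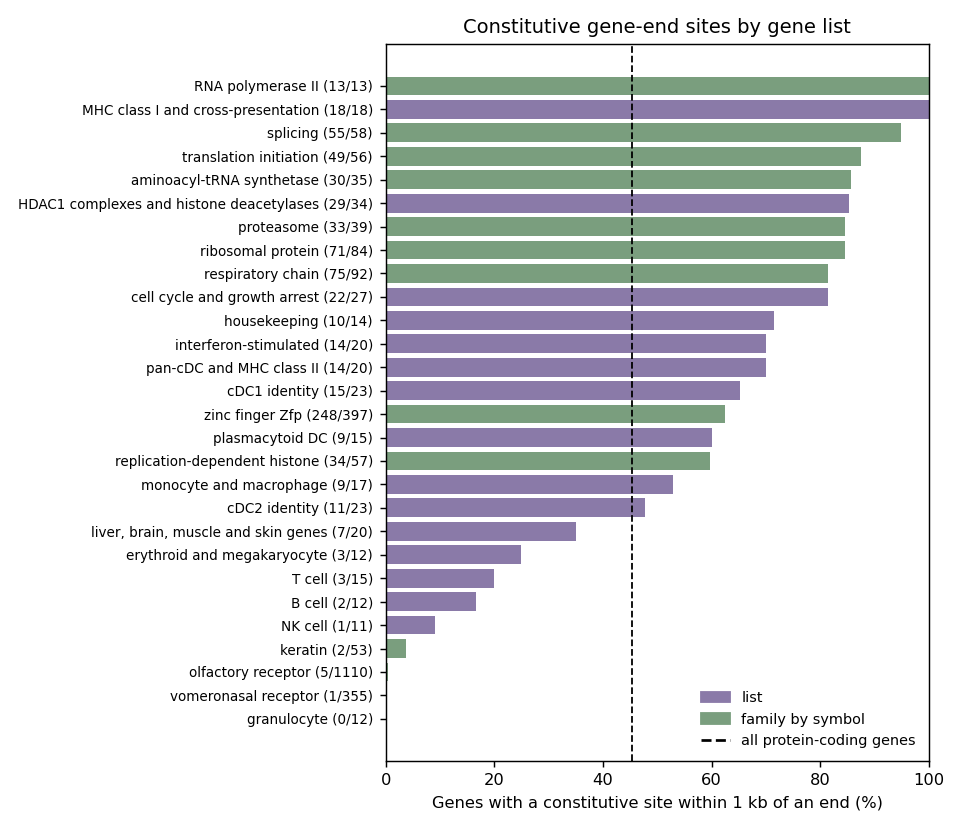
Percent of the genes of each list or symbol family with a constitutive site within 1 kb of an end, with the numbers of genes in brackets and a dashed line at the 45.3% of all protein-coding genes. RNA polymerase II and MHC class I genes reach 100%, granulocyte, olfactory and vomeronasal genes lie near 0.

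The labelled cell types were checked against marker lists. Of 20 genes of conventional dendritic cells and MHC class II, 14 had a member, among them Flt3, Zbtb46, H2-Ab1, H2-Aa, H2-Eb1 and Cd74, while Itgax (CD11c), Dpp4 and Kit had summits near an end in all 8 libraries without forming a member. The list of cDC1 identity had a member at 15 of 23 genes and that of cDC2 identity at 11 of 23. Over all protein-coding genes 45.3% had a member, so the 47.8% of cDC2 identity is near the share of all genes. The share was 65.2% for cDC1 identity and 70% for the general dendritic list. Lists of other lineages had fewer, with 3 of 15 T cell genes, 2 of 12 B cell genes, 1 of 11 NK cell genes, 0 of 12 granulocyte genes and 3 of 12 erythroid and megakaryocyte genes. Plasmacytoid dendritic cell genes had 9 of 15 and monocyte and macrophage genes 9 of 17, both as large a share as cDC2 identity or larger. Genes with no summit near an end in any library numbered 8 of 15 for T cells, 4 of 12 for B cells, 7 of 11 for NK cells, 8 of 12 for granulocytes, 5 of 12 for erythroid cells and megakaryocytes and 3 of 17 for monocytes and macrophages. Over all protein-coding genes this share was 38.9%. B cell and monocyte and macrophage genes lay below it, and erythroid and megakaryocyte genes near it. Listed genes without any such summit included Cd3g, Pax5, Ncr1 and S100a8, while Cd3d, Cd5 and Tcf7 of T cells, Cr2 and Ms4a1 of B cells and Klrk1 of NK cells had members. The dendritic lists held such genes too, namely Itgae and Cd36 of cDC1 identity, Sirpa and Cd300a of cDC2 identity and Ikzf1 and Csf2ra of the general list.

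The height of each site was read as its percentile rank among the 29645 sites within its library, so that 100 is the highest score in that library and differences are in percentile points. The mean rank over the 8 libraries had a median of 75.3 for the members (quartiles 51.2 and 89.1), 39.1 for the 11298 constitutive sites inside genes and 37.4 for the 9129 between genes. Members were 92 of the 100 highest sites and 870 of the 1000 highest. They made up 12.9% of the lowest decile and 82.2% of the highest decile. Height followed the start of the gene, with a median of 78.1 for members near a start only, 70.3 near a start and an end, and 36.8 near an end only. The last value is close to that of the sites away from genes. The score helped to choose the sites, so these levels are a description.

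Members near a start ranked above the other classes in each library. Members near a start only had a median rank of 79.7 (WT 1), 78.6 (WT 2), 81.4 (KO 1) and 81.2 (KO 2) in cDC1 and of 76.0, 74.98, 78.0 and 79.2 in the same order in cDC2. Members near an end only lay between 35.9 and 41.8. Over all members the median rank was 77.0, 75.9, 79.1 and 79.0 in cDC1 and 73.1, 72.2, 75.5 and 76.4 in cDC2, in that order. WT cDC2 libraries were lowest and KO cDC1 libraries highest. The deposited lists held 76022, 77585, 74963 and 96031 summits in cDC1 and 66609, 61737, 69025 and 78296 in cDC2, in the same order. The WT cDC2 lists were the 2 shortest, while KO cDC1 1, which had the highest median rank, had a shorter list than either WT cDC1 library. The lowest score kept ran from 1.31 to 7.21. The part of list length in these ranks was not tested.

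**Figure D3:**
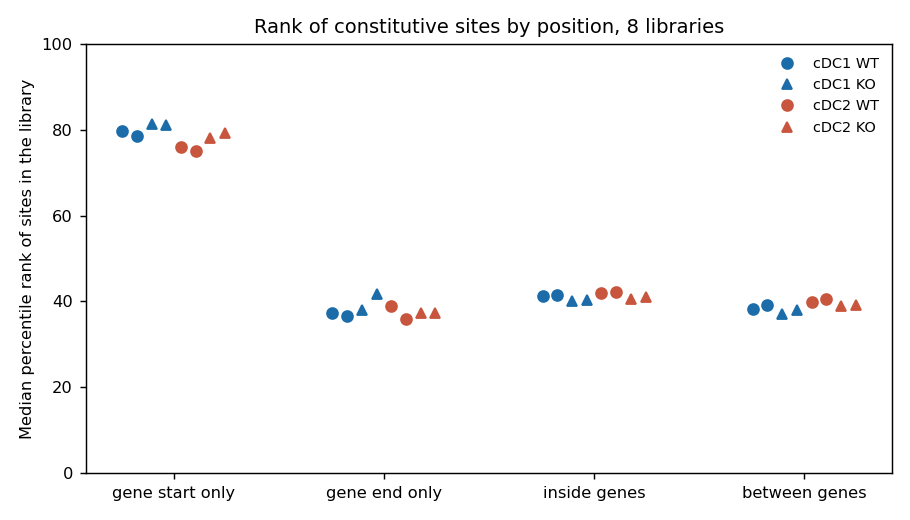
Median percentile rank of constitutive sites in each library, for members near a gene start only and near a gene end only and for constitutive sites inside and between genes (circles WT, triangles KO, blue cDC1, red cDC2). Start members lie between 74.98 and 81.4 in all 8 libraries, and the other 3 classes between 35.9 and 42.1.

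The 10 members of highest mean rank were all above 99 in every library. They lay at Msmo1, Pitrm1 (a mitochondrial peptidase), Scai (a transcriptional cofactor), Arl13b (a GTPase of cilia), the shared start of Xrcc4 (DNA end joining) and Tmem167, Rcl1, Mtfr1 (mitochondrial fission), Stil (centriole duplication), Yipf5 (a Golgi protein) and Kbtbd8 (an adaptor of ubiquitin ligases). At Msmo1 (chromosome 8, 64733674 to 64733692) all 8 summits fell within 18 bp, 105 bp upstream of the start. At Rcl1 (chromosome 19, 29101282 to 29101287) they fell within 5 bp.

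The promoters under the members differed from other promoters in sequence. In the 300 bases from 250 before to 50 after the start, promoters with a member within 1 kb (8431 promoters) had a median GC content of 62.0% and a CpG observed over expected ratio of 0.801, against 56.3% and 0.567 over all 21263 promoters. A GC box was present in 69.7% against 46.2% of all, the promoter-type ETS motif CCGGAAGT in 10.03% against 5.15%, the NRF1 core GCGCATGC in 6.13% against 3.52%, the YY1 motif AAGATGGCG in 3.64% against 1.83% and the palindrome TCTCGCGA in 2.75% against 1.41%. TATAAA was less common, in 5.74% against 12.6%, as was the AP-1 motif, in 4.12% against 6.99%. The set of all promoters includes those with a member. The 12832 promoters with no member within 1 kb had a median GC content of 51.7% and a CpG ratio of 0.302. Of these, 30.8% held a GC box, 17.1% TATAAA and 8.88% the AP-1 motif. Each motif was searched on both strands and the windows of neighbouring starts can overlap.

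Motifs also varied with height. In the 949 promoters whose member was in the highest decile by mean rank, the NFY box was found in 27.7%, against 5.64% of the 532 in the lowest decile and 9.27% of all promoters. The PU.1 motif GAGGAAGT went the other way, in 4.11% and 6.77%, against 3.13% of all promoters. In the lowest decile the CpG ratio was 0.645 and TATAAA was present in 10.2%, against 0.833 and 3.06% in the highest.

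The first comparison asks whether constitutive gene-end sites differ in height between cDC2 and cDC1. Sites were tested with limma over all 29645 constitutive sites, 4 libraries of cDC2 against 4 of cDC1, at a Benjamini-Hochberg adjusted p of 0.05. Among members 690 (7.49%) ranked higher in cDC2, where the share over all sites tested was 13.8%, and 1529 (16.6%) ranked lower, where the share over all sites was 14.2%. Constitutive sites inside genes had 16.5% higher and 13.6% lower, and those between genes 16.8% and 12.4%. The median difference of members was -1.67 percentile points, against 1.69 for the other constitutive sites. Because ranks within a library are shared out among all sites, a shift of the members as a whole is a shift against the other sites. With percentiles taken among the members alone, a scale that is centred on the members by construction, 972 were higher and 949 lower, and the median was -0.04.

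The differences that passed were of moderate size. They had a median of 13.3 points among the higher and 15.5 among the lower members, and 252 and 579 were at least 20 points. With no regard to the test, all 4 cDC2 libraries lay above all 4 cDC1 libraries at 681 members (7.39%), beside 12% of all constitutive sites, and below them at 1391 (15.1%), beside 12.8%. The total of 2219 dropped to 1234 without WT cDC1 1, to 1467 without WT cDC1 2, to 1396 without KO cDC1 1 and to 1150 without a variance trend. Simulated data were made for this comparison of 4 libraries against 4, with differences set on the normal score scale of the ranks. The test recovered a median of 24 of 100 sites with a difference of 1 unit and 1 of 100 with 0.5 units. Only 100 sites of each size were changed among 29645, far fewer than were called here, which makes the adjusted threshold stricter. These counts are therefore not the sensitivity of the real comparison. Since members had to be present in all 8 lists, sites open in 1 subset only are not among them.

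Pairs of libraries differed most where the subset differed. The median absolute difference in rank over members was 4.35 to 5.48 points within the 4 pairs of the same group, 4.49 to 5.64 in the 8 pairs of a subset that differ in genotype, and 5.97 to 8.63 in the 16 pairs of different subsets. The first and second ranges overlap, the third lies above both.

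**Figure D4:**
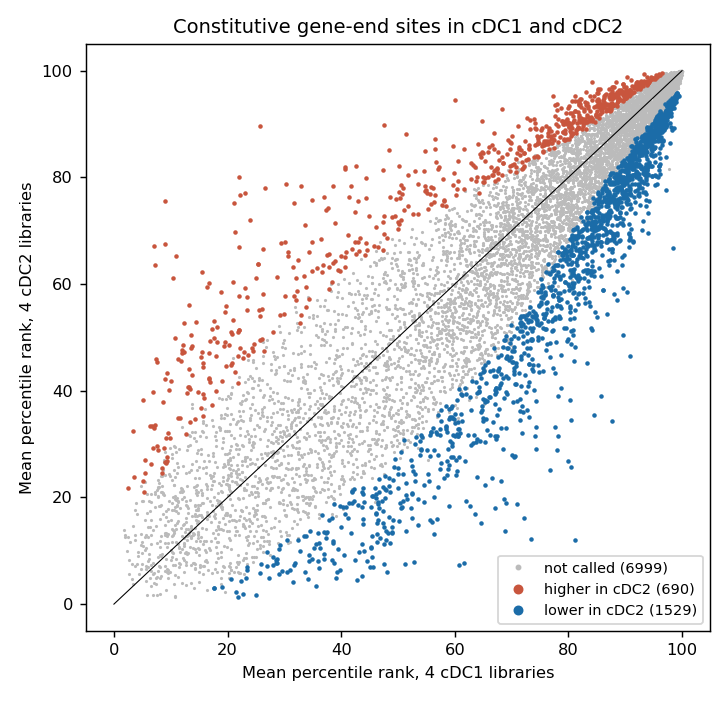
Mean percentile rank of each of the 9218 members in the 4 cDC1 libraries (horizontal) and the 4 cDC2 libraries (vertical), with members higher in cDC2 in red (690) and lower in blue (1529) and the line of equality. Called sites occur over the whole range, and the gaps called are smallest where both ranks come near 100.

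Calls varied with position and height. Of members near a start only 7.16% were higher and 16.8% lower, of those near an end only 12.9% and 15.2%, and of those near a start and an end 2.43% and 22.2%. The decile of members with the highest mean rank had 3.15% higher and 3.58% lower. In the decile of rank 7 from the lowest 10.4% were higher and 24.1% lower. Promoters with a member lower in cDC2 (1466) had a median GC content of 64.7% and a GC box in 77.4%, and those with a member higher in cDC2 (559) had 58.0% and 56.5%, with uncalled members between at 61.7% and 69.1%. The E-box CACGTG was found in 14.1% of the lower and 6.98% of the higher, against 10.8% of those with an uncalled member and 7.84% of all promoters. For the interferon element core the shares were 2.25% and 4.65%, against 2.89% with an uncalled member and 3.35% of all promoters.

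The 12 members with the largest gain in cDC2 differed by 50.8 to 66.5 points. The Ptgs2 site (chromosome 1, 150099781 to 150100124, 78.5 bp upstream of the start printed above) ranked at 23.9, 21.4, 35.4 and 22.3 in WT cDC1 1 and 2 and KO cDC1 1 and 2, and at 85.6, 93.0, 93.1 and 86.9 in WT cDC2 1 and 2 and KO cDC2 1 and 2. All cDC2 libraries were above all cDC1 libraries, by a mean of 63.9 points (SE 6.65, limma adjusted p = 9.08e-05). Ptger3, a receptor for prostaglandin E2, ranked at 9.04, 0.128, 20.6 and 13.8 in cDC1 and at 72.0, 74.9, 63.3 and 50.6 in cDC2 in the same order, without overlap (54.3 points, SE 7.24, limma adjusted p = 0.000227). Il2rg, the common gamma chain of the interleukin-2 receptor family, ranked at 6.54, 9.71, 6.08 and 6.83 in cDC1 and at 71.1, 60.1, 63.4 and 60.0 in cDC2. The 4 cDC1 values were close together and far below cDC2 (56.4 points, SE 6.94, limma adjusted p = 0.000152).

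The remaining sites with the largest gains were of mixed kind. D7Ertd443e had the largest difference, 66.5 points, and uneven cDC1 values of 0.0961, 0.115, 32.0 and 3.91 against 65.2 to 81.3 in cDC2. Stk26, a kinase, was higher by 58.5 points and Zik1 by 58.1, with a mean of 21.9 ± 9.75 in cDC1 and 80.1 ± 4.26 in cDC2 for Zik1 (SD, n = 4). Gpr45, an orphan receptor, was higher by 50.8, Irgc1 by 54.1 and Gm19774 by 54.0 points. Another 3 sites lay at gene ends rather than starts, near Kptn (60.1 points), Vapb (54.6) and Mefv (51.3), the gene of pyrin, an inflammasome sensor. All 12 had cDC2 values above every cDC1 value.

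Among the members that lost most in cDC2, Mab21l3 led. Its site (chromosome 3, 101836319 to 101836757, 255 bp upstream of the start) ranked at 80.1, 80.5, 86.9 and 77.0 in cDC1 and at 2.47, 6.51, 26.1 and 12.8 in cDC2, in the order WT 1, WT 2, KO 1, KO 2. The subsets did not overlap, and the difference was -69.2 points (SE 7.34, limma adjusted p = 9.08e-05). The Sema4f site, 31.5 bp downstream of its start, ranked at 72.3, 70.0, 76.5 and 74.8 in cDC1 and at 5.77, 11.6, 11.6 and 19.5 in cDC2 (-61.3 points, SE 7.13, limma adjusted p = 0.000123). Cd24a, a surface glycoprotein that marks cDC1, ranked at 79.3, 81.1, 73.6 and 73.0 in cDC1 and at 20.6, 8.998, 27.1 and 43.6 in cDC2. It was lower in each cDC2 library than in any cDC1 library (-51.7 points, SE 7.35, limma adjusted p = 0.000343).

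The other 9 had differences from -56.0 to -50.2 points. They lay near Proser2, Rnf157 (a ubiquitin ligase), Gm10277, Shroom1 and Triobp (both actin-binding), Mast4 (a kinase), Akr1b8 (an aldo-keto reductase), Slc22a18 (a transporter) and Wdr86. Triobp had the widest spread in cDC2, with values of 24.0, 6.87, 50.9 and 55.9 against 81.1 to 91.5 in cDC1. The 12 sites with the largest gains and the 12 with the largest losses passed the test under every alternative in which they were present.

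**Figure D5:**
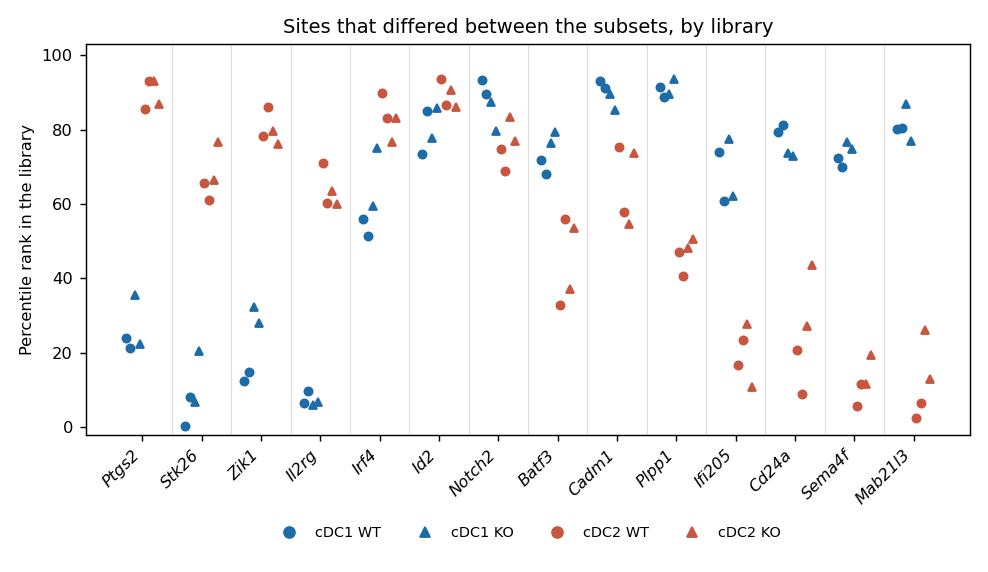
Percentile rank in each of the 8 libraries (circles WT, triangles KO, blue cDC1, red cDC2) for 14 members that differed between the subsets. At Ptgs2, Stk26, Zik1 and Il2rg the red points lie above the blue ones, and from Batf3 rightwards below them. Id2 and Notch2 show the smallest gaps.

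Genes of cDC1 identity had 18 sites, of which 9 were lower in cDC2, 1 was higher and 8 did not pass, with a median difference of -12.4 points beside -1.67 for all members. The shares were 50% lower and 5.56% higher, beside 16.6% and 7.49% of all members and 14.2% and 13.8% of all sites tested. They carry no test. With ranks among the members alone 8 were lower and 1 higher. At the start of Batf3, the transcription factor required for cDC1, the ranks were 71.7, 67.9, 76.4 and 79.2 in cDC1 and 32.8, 55.9, 37.1 and 53.6 in cDC2 (-29.0 points, SE 7.17, limma adjusted p = 0.00878). Cadm1, an adhesion molecule of cDC1, differed by -24.3 points, Plpp1, a lipid phosphatase, by -44.3 and Ifi205 by -48.9. Tlr3, the sensor of double-stranded RNA, differed by -29.8, the site at the end of Tlr11 by -27.0, Snx22 by -33.1 and Ly75, the gene of the endocytic receptor DEC-205, by -6.75. The Tlr3 site lies 911 bp downstream of the start. Further sites did not pass at the start of Tlr11 (-10.8 points, limma adjusted p = 0.158), at Plpp1 (-14.1, limma adjusted p = 0.172) and at Ly75 (-2.80, limma adjusted p = 0.759). The site at Id2, a transcriptional repressor that cDC1 need, went the other way by 8.70 points. Irf8, on which cDC1 depend, had a site of mean rank 82.8 that did not pass (-4.84 points, SE 3.08, limma adjusted p = 0.255). The defining receptors Xcr1 and Clec9a had no member, with summits near an end in 3 and 8 libraries.

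These calls were not equally firm. Those of Batf3, Cadm1, Cd24a, Ifi205 and Plpp1 passed under every alternative. That of Tlr11 was lost without WT cDC1 1 (limma adjusted p = 0.0686), and that of Snx22 without WT cDC1 1 or KO cDC1 2 and without the variance trend (up to 0.0670). Tlr3 lost the call in 6 of 19 alternatives (limma adjusted p up to 0.0978), Ly75 in 7 of 20 (up to 0.211) and Id2 in 8 of 20 (up to 0.192), among them the removal of several single libraries. XCR1 was used to sort the subsets.

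Genes of cDC2 identity had 11 sites, of which 2 were higher, 1 was lower and 8 did not pass. The median difference was 6.96 points, beside -1.67 for all members. These shares, 18.2% higher and 9.09% lower, stand beside 7.49% and 16.6% of all members and 13.8% and 14.2% of all sites tested. So few sites carry no test. Irf4 ranked at 56.0, 51.3, 59.5 and 75.1 in cDC1 and at 89.8, 83.1, 76.6 and 83.1 in cDC2, with the highest cDC1 library just under the lowest cDC2 library (22.7 points, SE 4.77, limma adjusted p = 0.00359). Clec12a, a C-type lectin, differed by 17.3 points, a call lost without WT cDC1 2, WT cDC2 1 or KO cDC2 1 (limma adjusted p up to 0.0688). Notch2, the receptor needed by splenic cDC2, was lower by 11.5 points in cDC2, with ranks of 79.6 to 93.3 in cDC1 and 68.8 to 83.5 in cDC2. The call at Notch2 was lost without WT cDC1 1 or KO cDC1 1, without the variance trend, and among members alone (up to 0.0912). Sites at Relb (mean rank 92.2), Prdm1 (77.0) and Cx3cr1 (48.7) did not pass. Sirpa, Itgam, Zeb2 and Klf4 had no member.

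The list of dendritic cell and MHC class II genes had 18 sites, of which 1 was higher in cDC2, 3 were lower and 14 did not pass. These shares, 5.56% higher and 16.7% lower, are near the 7.49% and 16.6% of all members. With ranks among the members alone 1 was higher and 1 lower. The site 694 bp from an end of Spi1, the gene of the transcription factor PU.1, was higher by 24.7 points (SE 7.22, limma adjusted p = 0.0204). Cd74, the invariant chain of MHC class II, was lower by 19.6 points, with ranks of 74.1 to 78.8 in cDC1 and 44.96 to 65.9 in cDC2. H2-DMb1 and H2-DMa, which load peptide onto class II, were lower by 21.1 and 19.3 points. The called H2-DMa site lies 744.5 bp downstream of the start, with low ranks of 16.6 to 31.9 in cDC1 and 0.251 to 4.26 in cDC2. Another H2-DMa site, 224 bp upstream of the start, did not pass (-19.1 points, limma adjusted p = 0.0549). The class II genes themselves, H2-Aa, H2-Ab1 and H2-Eb1, did not pass, at -5.13, -5.51 and -1.44 points for the sites next to their starts. All 4 calls were lost in some alternatives that left out 1 library. Spi1 lost it without WT cDC1 1, KO cDC1 1 or WT cDC2 2 (limma adjusted p up to 0.0977), and H2-DMa without WT cDC1 2 (up to 0.0751). H2-DMb1 lost it when any 1 of the 4 cDC1 libraries or WT cDC2 2 was left out (up to 0.0714), and Cd74 in 8 of 19 alternatives (up to 0.0983).

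The 18 genes of antigen presentation on MHC class I all had a member. Of their 19 sites 3 were lower in cDC2, at Psmb10 (-30.0 points), Tapbp (-24.9) and Tap2 (-19.9), with none higher. The share lower, 15.8%, is near the 16.6% of all members. With ranks among the members alone 1 was lower and 1 higher. Psmb10 is an immunoproteasome subunit, and the other two act in loading of peptides. Of 15 sites at interferon-stimulated genes, Ifit2 was higher by 30.7 points and Bst2 lower by 17.3, and 13 did not pass. Ranked among the members alone, 1 of these 15 sites was higher and 0 lower. Of 22 sites at cell cycle genes, Ccne2 was higher by 13.8 points, and Top2a, Cdk4, Cdk2, Ccne1 and Ccnb1 were lower by 15.5 to 3.33, which is 22.7% lower beside 16.6% of all members. Among the members alone 1 was higher and 1 lower. Single genes outside the 4 lists named for this purpose were chosen after their values had been seen.

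Sites at markers of other cells also moved between the subsets. Of 9 sites at monocyte and macrophage genes, 2 were higher in cDC2, among them that of Spic, a transcription factor of tissue macrophages, by 48.1 points. Ly6c2 was lower by 41.0 points, and 6 did not pass. Of 9 sites at plasmacytoid dendritic cell genes, 3 were lower in cDC2, at Pacsin1 (-43.2), Ly6c2 and Bst2, and none was higher. Ranked among the members alone, the plasmacytoid list had 1 higher and 2 lower, and the monocyte and macrophage list 3 and 1. Ly6c2 is on both of these lists, and Bst2 is also on the interferon list. Among all members 7.49% were higher and 16.6% lower, and the counts of these short lists carry no test. Cr2 and Ms4a1, the 2 B cell genes with a member, differed by 39.8 and -30.1 points. Cd3d of T cells was higher by 19.9 and Klrk1 of NK cells was lower by 34.0 points. Erythroid and megakaryocyte genes had 3 sites, of which 1 was higher and 2 did not pass. The part of other cells in the sorted populations was not tested.

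Counts for gene families taken by symbol stand beside those of all members, of which 7.49% were higher and 16.6% lower in cDC2, and carry no test. Ribosomal protein genes had 2 higher and 18 lower of 76 sites (23.7% lower), translation initiation genes 0 and 11 of 54 (20.4%), splicing genes 2 and 15 of 58 (25.9%), proteasome genes 1 and 6 of 33 (18.2%) and aminoacyl-tRNA synthetases 3 and 4 of 32 (12.5%). With ranks among the members alone the counts were 3 higher and 12 lower, 0 and 7, 3 and 8, 2 and 3, and 4 and 3. Zfp zinc finger genes had 37 higher and 26 lower of 253 sites with a median difference of 0.93 points beside -1.67 for all members, and 45 higher and 15 lower with ranks among the members alone. Without the variance trend the balance of their calls turned, with 11 higher and 19 lower. Among housekeeping genes Tuba1b, Gapdh and Ppia were lower by 14.9, 12.7 and 12.8 points and Pgk1 higher by 4.10, while the median of the 10 sites was 2.30 points.

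The second question is whether loss of Hdac1 moved these sites. No member passed for KO against WT over both subsets, within cDC1 or within cDC2, or for the difference between the 2 genotype effects (limma with Benjamini-Hochberg adjustment). Over all 29645 sites the share called was also 0% in each of these 4 comparisons. The smallest adjusted p of a member was 0.197 over both subsets, 0.260 in cDC1, 0.106 in cDC2 and 1.00 for the difference. A site that did not pass is not shown to be equal.

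At an unadjusted p of 0.05, members leaned towards higher ranks in KO. Over both subsets 845 members (9.17%) were higher and 145 (1.57%) lower, beside 6% and 6.29% of all sites. In cDC1 the counts were 459 and 124, beside 3.66% and 4.14% of all sites, and in cDC2 725 and 133, beside 5.03% and 4.07%. The difference between the genotype effects had 445 members (4.83%), beside 4.61% of all sites. The median difference of members over both subsets was 1.55 points, against -1.05 for the other constitutive sites. With percentiles among the members alone the counts were 386 higher and 377 lower over both subsets, 275 and 271 in cDC1, and 321 and 320 in cDC2. That scale is centred on the members by construction, so its even split carries no information on the lean.

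The Hdac1 gene has a member of its own (chromosome 4, 129542765 to 129542834, 153.5 bp from an end of the gene). It ranked at 92.2, 89.0, 81.2 and 91.4 in WT cDC1 1 and 2 and KO cDC1 1 and 2, and at 72.7, 79.5, 84.1 and 85.6 in the cDC2 libraries in the same order. KO lay within the WT values in cDC1 except for KO 1, and above both in cDC2, and the difference over both subsets was 2.23 points (SE 2.74, limma adjusted p = 0.781). The labels do not give where the floxed part of the gene lies, and the promoter table gives no strand for Hdac1, so the site was not used to check the deletion. Between subsets it was lower in cDC2 by 8.01 points (limma adjusted p = 0.0414), a call that 10 of 20 alternatives lost.

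Genes of the complexes that hold HDAC1 and of the other histone deacetylases had a member at 29 of 34, with 32 sites, and none passed a genotype comparison. Between subsets Hdac2, the close paralog of Hdac1, was higher in cDC2 by 6.03 points, and Hdac5, Hdac10, Sap18, Kdm1a and Hdac1 were lower. The 5 lower sites are 15.6% of the 32, near the 16.6% of all members. With ranks among the members alone 1 of the 32 sites was higher and 1 lower. Hdac5, a class IIa deacetylase, ranked at 78.8, 84.2, 87.0 and 84.7 in cDC1 and 63.8, 48.8, 50.3 and 63.3 in cDC2, without overlap (-27.1 points, SE 5.16, limma adjusted p = 0.00200), and passed under every alternative. The calls at Hdac2, Hdac10, Sap18 and Kdm1a were lost in 11 of 19, 9 of 20, 10 of 20 and 6 of 20 alternatives, with limma adjusted p up to 0.217, 0.154, 0.193 and 0.141. The Hdac10 site also lies at the start of Tubgcp6.

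The members with the smallest p for genotype are given as values. Fam110b ranked at 54.6, 44.6, 47.4 and 56.7 in WT cDC1 and WT cDC2 and at 74.3, 78.4, 84.9 and 87.1 in KO, above all WT values (30.3 points, SE 5.44, limma adjusted p = 0.197). Evpl, the envoplakin gene of epithelial cells, ranked at 1.19 to 3.92 in WT and at 25.6 to 36.4 in KO (29.8 points, limma adjusted p = 0.197). The site near the end of Man2a1, a Golgi mannosidase, ranked at 92.1 to 95.5 in WT and at 81.6 to 87.9 in KO (-9.04 points, limma adjusted p = 0.197). At these 3 sites the genotypes did not overlap, and none passed on percentile ranks. Fam110b passed on normal scores (limma adjusted p = 0.0230) and on log2 scores (0.00884), and Evpl on log2 scores (0.0188), with values up to 0.531 for both over the alternatives.

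Within cDC1 the 3 smallest p-values were at Tspyl5 (37.6 points), Svip (28.2) and Mfap3l (8.05), with an adjusted p of 0.260 in limma. Within cDC2 they were at the site near Fam160a2 and Cnga4 (22.4 points, limma adjusted p = 0.106), Dhrs11 (23.3, limma adjusted p = 0.137) and the shared start of Eci1 and Rnps1 (22.3, limma adjusted p = 0.162). At Dhrs11, a short-chain dehydrogenase, WT cDC2 had 61.1 and 67.2 and KO cDC2 91.1 and 83.7, while WT cDC1 had 92.5 and 92.6 and KO cDC1 85.0 and 91.9. WT cDC2 was thus the low group, and the difference of genotype effects was 27.4 points (SE 5.604, limma adjusted p = 1.00). WT cDC2 was the lowest group at the Fam160a2 site too, with 56.3 and 54.8 in WT cDC2, 78.1 and 77.9 in KO cDC2 and 97.3 to 98.9 in cDC1, and at Hnrnpr (17.6 points for the difference of effects, limma adjusted p = 1.00). A fit without 1 WT cDC2 library rests on the single WT cDC2 library left, and its spread comes from the other groups. Without WT cDC2 1 that library is WT cDC2 2, with the shortest list and the lowest median rank of members (72.2). Leaving out WT cDC2 1 gave 39 members called for KO against WT in cDC2 (0.423%), all higher in KO, beside 0.179% of all sites called higher and 0.00675% lower. Among these 39 were Fam160a2 (limma adjusted p = 0.0181, from 0.0181 to 0.774 over the alternatives) and the Eci1 and Rnps1 site (0.0393, from 0.0393 to 0.537). Leaving out WT cDC2 2 gave 2 members, both higher, beside 0.0101% of all sites.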

How the data were processed

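ATAC-seq was made from sorted cDC1 and cDC2 of mouse spleen, 2 libraries in each of 4 groups taken from the sample titles. Per the submitters' processing notes, Bowtie2, SAMtools, MACS2 and MultiQC were used with GRCm38 (mm10). Versions, filters and peak settings are not given in the sources used here. The authors deposited, for each library, a list of summits with a −log10 score per peak. It was read as the −log10 of a q-value, from its lowest values of 1.30 to 1.36. The lists hold no read counts, so the depth is unknown and no counting interval could be given. Scores rise with depth, so they served only to rank sites within a library.

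Summits were chained within 250 bp and sites placed by midpoint against RefSeq gene spans of GRCm38.p6. Where a site held more than 1 summit of a library, the highest score was used. Percentile ranks over the 29645 sites found in all 8 libraries were fitted with limma 3.58.1 in R 4.3.3, with a mean for each of the 4 groups, a variance trend and 5 contrasts, and Benjamini-Hochberg adjustment over all sites with a threshold of 0.05. The fit was tested on simulated data. Sites with ranks near 0 or 100 have little room to move in that direction. The alternatives were the length of the lists, the chaining distance, the window around gene ends, the scale of the ranks, the variance trend, replicate blocks and leaving out each library.

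The members and gene lists were chosen with earlier results of these data known. Named sites were the 10 of highest mean rank, the 12 largest differences in each direction among those called, called sites of the cDC1, cDC2, dendritic cell and HDAC1 lists, Hdac1, and the 3 smallest p-values of contrasts without calls. Sequences were limited to promoters that the site overlaps and that no coding gene overlaps. No genome was used, so sequences of sites away from promoters and exon or intron positions are not given. Values of some genes on the lists are not reported here.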

Additional observations from a re-analysis of the deposited data

How the results depend on the processing

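The number of members was 9675 with all deposited summits, 7450 with the best 30868 summits of each list, 7870 and 9645 with chaining at 100 and 500 bp, and 8144 and 10655 with windows of 500 bp and 2 kb. Between subsets, 1150 members were called without the variance trend, against 2219, and 1234 to 2112 when 1 library was left out. For KO against WT, where the main count was 0, 2 were called on normal scores and 12 on log2 scores, and 0 to 3 with 1 library left out. Every one of these calls was higher in KO. Shares over all sites in these settings are not given here, so members are not set against other sites. In cDC1 the count was 0 to 1 with 1 library left out. In cDC2 the count was 1 on log2 scores (higher in KO), 1 among the members alone (lower in KO) and 0 to 39 with 1 library left out. The difference of genotype effects gave 0 to 2. The Hdac1 site's genotype difference of 2.23 turned to -0.21 among the members alone, and ranged from -0.32 (without replicate 2 of KO cDC1) to 4.78 with 1 library left out. The causes were not tested. Of 46 named sites called between subsets, 30 passed under every alternative run for them, 16 were lost in 1 or more and 0 reversed. On the scale of ranks among members alone, 1603 of the 2219 calls remained with the same sign.

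The labels do not say that equal numbers share an animal, although peak names of cDC1 and cDC2 lists with the same genotype and number share a prefix. Deviations of same-numbered libraries correlated at 0.06 in WT and 0.19 in KO between subsets, and at -0.0057 and 0.04 between genotypes. With the replicate number as a block 2370 members were called between subsets, and with a replicate block by genotype and number 2673. The block gave 0 members in each genotype contrast. If libraries of both subsets come from 1 animal, p-values of KO against WT over both subsets are too small. The unknown depth limits every height, which is a rank and not a signal.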
